A study of Mus musculus with 9 samples.

Results

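Toll-like receptors and the proteins that work directly with them were followed in mouse lungs after long exposure to tobacco aerosols. The genes were the receptors Tlr1, Tlr2, Tlr4, Tlr6, Tlr7, Tlr8 and Tlr9, the co-receptors Cd14 and Ly96, and the adaptor Myd88. They were found by matching the RefSeq accession of each non-control array probe to a gene symbol, which gave 16 probes for the 10 genes, out of 56605 probes and 22911 named genes in all. Whole lungs came from male C57BL/6J mice that were 12 weeks old when exposure began and carried no engineered allele in the labels. They breathed fresh air (air), a 3.5% aerosol of the heated tobacco product IQOS (IQOS) or 3.5% cigarette smoke (CS) for 6 months. Total RNA was hybridised in 1 colour (Cy3) to Agilent mouse arrays, with 3 arrays per group, numbered 1 to 3 within each.

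Toll-like receptors recognise microbial molecules and products of damaged cells. TLR2 sits on the cell surface and binds lipoproteins as a pair with TLR1 or with TLR6. TLR4 reads bacterial lipopolysaccharide, which CD14 hands to a complex of TLR4 with MD-2, the protein made by Ly96. TLR7, TLR8 and TLR9 lie in endosomes and bind single-stranded RNA or unmethylated DNA. All of these receptors signal through the adaptor MyD88 to the NF-kB transcription factors, and TLR4 can also use a second adaptor, TRIF. In lung they are known above all from macrophages, monocytes, neutrophils, dendritic cells and B cells, although epithelial cells carry some of them.

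Windows from the RefSeq promoter table (GRCm38.p6) were searched for 6 of the 10 genes. For Tlr4, Tlr7, Cd14 and Ly96 no window was searched. The 250 bases upstream of the start are shown for Tlr2 and Myd88, which rose with CS, and for Tlr9, which did not pass the test with CS and was highest with IQOS. Matches to 4 short patterns, searched on both strands, are in capitals.
Tlr2, chr3:83841609-83841858, minus strand: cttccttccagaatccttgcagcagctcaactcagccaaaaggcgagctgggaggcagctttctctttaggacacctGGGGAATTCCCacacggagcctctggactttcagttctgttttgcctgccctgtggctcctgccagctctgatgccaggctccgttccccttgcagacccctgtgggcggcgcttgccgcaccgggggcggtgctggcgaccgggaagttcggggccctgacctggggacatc
Myd88, chr9:119340019-119340268, minus strand: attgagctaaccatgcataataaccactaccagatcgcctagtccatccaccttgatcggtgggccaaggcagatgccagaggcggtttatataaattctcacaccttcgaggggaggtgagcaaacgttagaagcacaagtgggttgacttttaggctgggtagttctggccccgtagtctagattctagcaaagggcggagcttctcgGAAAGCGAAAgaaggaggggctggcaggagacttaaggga
Tlr9, chr9:106222348-106222597, plus strand: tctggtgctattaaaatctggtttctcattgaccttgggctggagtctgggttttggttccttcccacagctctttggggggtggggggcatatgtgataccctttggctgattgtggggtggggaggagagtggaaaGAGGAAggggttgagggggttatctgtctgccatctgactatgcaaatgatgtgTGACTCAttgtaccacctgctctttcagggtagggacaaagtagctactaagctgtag
The Tlr2 window held the NF-kB pattern (GGG, any 5 bases, CC) from 173 bases upstream of the start, as GGGGAATTCC and, overlapping it on both strands, as GGGAATTCCC. This loose pattern is common, at 45.8% of 32851 windows of the same length. The Myd88 window held the interferon-response pattern (GAAA, any 2 bases, GAAA) as GAAAGCGAAA, 40 bases upstream, a pattern present in 2.98% of windows. The Tlr9 window held the AP-1 pattern TGANTCA, 58 bases upstream (6.75% of windows), and the PU.1 pattern GAGGAA, 112 bases upstream (23.3% of windows). Among the windows not shown, those of Tlr6, which did not pass with CS, held the interferon-response pattern and, in a separate window, the NF-kB pattern. A Tlr1 window and the Tlr8 window held the PU.1 pattern. These matches describe the sequence and no binding was measured.

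Each array had 64.3% to 68.8% of all probes well above background, and arrays of 1 group correlated at 0.990 to 0.994 over the tested probes. Precision is limited by the 3 arrays in each group. Air and CS shared a slide while IQOS had its own, so an effect of the slide and one of IQOS cannot be told apart. On the slides, the CS arrays and air 3 lay in array row 2 and all other arrays in row 1. The labels do not say that each array came from its own mouse, so the spread behind each p-value is that between samples and may be technical. The alveolar type II gene Sftpc was at 565 to 648 times an array's 75th percentile signal on the 9 arrays. In whole lung, more cells of a type and more RNA per cell cannot be told apart.

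Levels are given as relative signal, the probe's signal divided by the 75th percentile of its array, so a level can be compared between arrays but not between genes. Changes are log2 differences from limma, each ± its standard error (3 arrays per group), and adjusted p-values are Benjamini-Hochberg values over 37258 tested probes, called under 0.05. Of the 10 genes, 9 had a probe that passed the filter on dim signals, and Tlr8 did not. Where a gene had several probes, the brightest tested one stands for it.

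With CS, 3 of the 9 tested genes rose against air, Tlr2, Cd14 and Myd88, and 0 fell. Over all 16593 tested genes 5.6% were called higher and 6.12% lower. The CS and air arrays did not overlap for 5 of the 9 genes, all higher in CS, where 17.2% of all genes were higher without overlap and 21% lower. The median change of the 9 genes was 0.53, beside -0.02 over all genes. When 1 array was left out, the number of these genes that rose ran from 1 (without air 1, CS 2 or CS 3) to 4 (without CS 1 or IQOS 2). With IQOS 0 of the 9 genes passed against air in either direction in limma. Over all genes 1.99% were called higher and 0.886% lower. For an unadjusted p under 0.05 the count was 2 of the 9, beside 3370 of all 16593 genes. The IQOS and air arrays did not overlap for 3 of the 9 (Tlr7, Tlr9 and Myd88), all higher with IQOS, beside 13% of all genes higher and 15.1% lower. Between the aerosols, 2 of the 9 genes, Tlr2 and Cd14, were lower with IQOS than with CS and 0 were higher, beside 5.18% and 4.94% of all genes. Their arrays did not overlap for 3 genes lower with IQOS (Tlr2, Cd14 and Myd88) and 2 higher (Tlr9 and Ly96), beside 16.8% and 18.5% of all genes. Without air 1, CS 2, CS 3 or any IQOS array the lower count was 1, Tlr2.

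**Figure D1:**
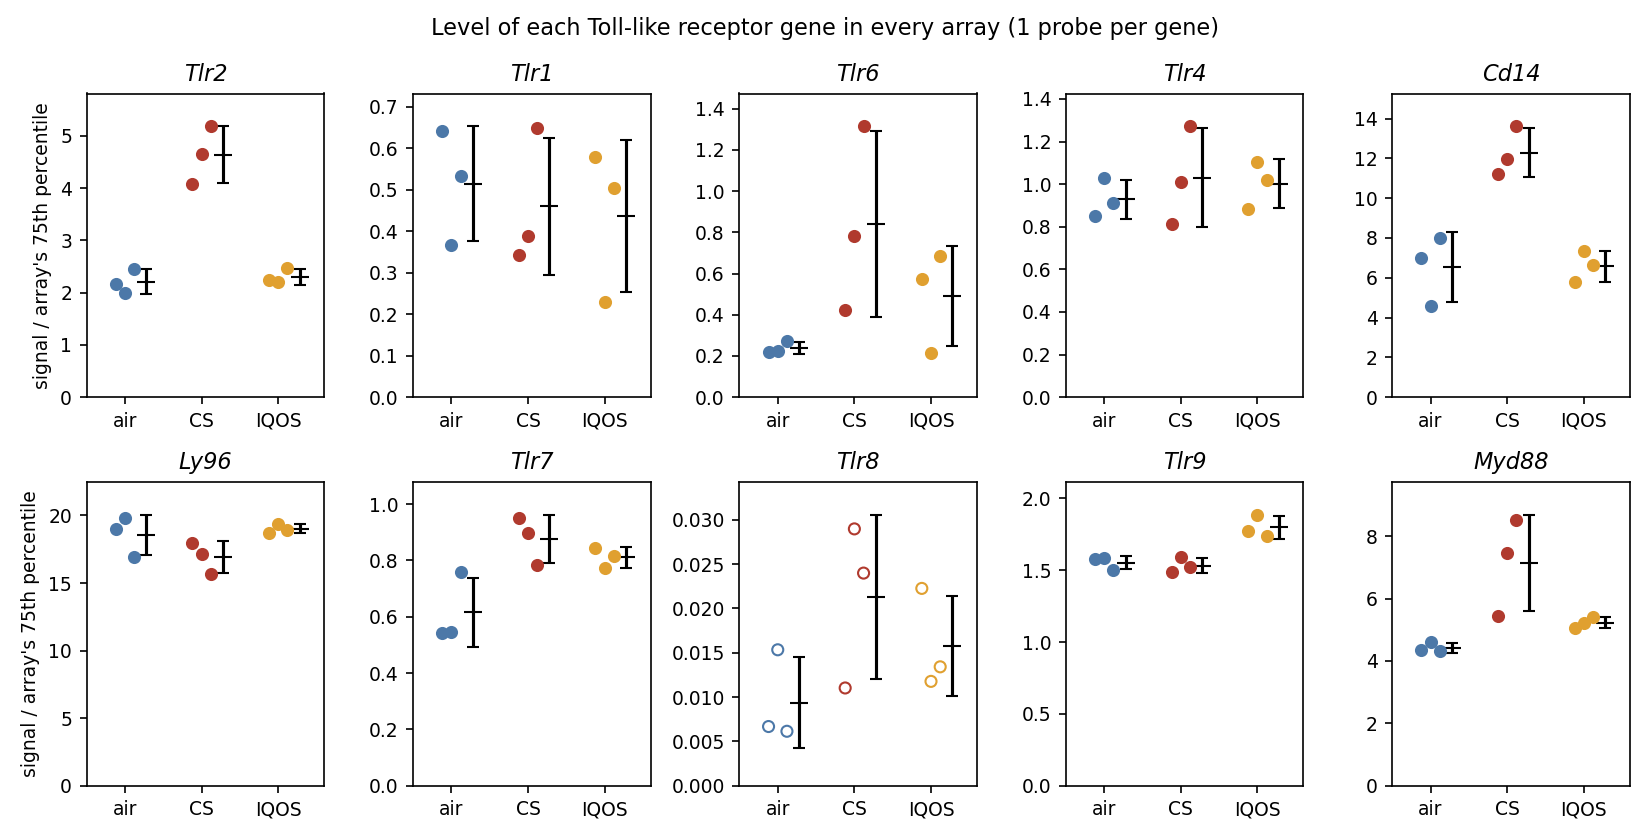
Relative signal (signal divided by the array's 75th percentile, linear axis from 0) of 1 probe per gene on each of 9 arrays, in air, CS and IQOS. Points are arrays, black bars the mean ± SD (n = 3), and open points mark groups in which the probe was not well above background on any array, as for Tlr8. Tlr2 and Cd14 are higher on all 3 CS arrays than on every air and IQOS array, while Tlr4 and Tlr1 overlap between the groups.

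Among the lipoprotein receptors, Tlr2 rose with CS and did not pass the test with IQOS against air. Its relative signal was 2.17, 1.99 and 2.46 on the air arrays, 4.09, 4.65 and 5.18 on the CS arrays, and 2.24, 2.20 and 2.48 on the IQOS arrays. Every CS array lay above all 6 others, and air and IQOS overlapped. Its mean was 4.64 ± 0.55 (SD, n = 3) with CS, against 2.21 ± 0.24 in air and 2.30 ± 0.15 with IQOS. Tlr2 rose by 1.07 ± 0.11 with CS (2.10-fold, limma adjusted p 0.00416). IQOS against air gave 0.06 ± 0.11 (95% interval -0.19 to 0.32, adjusted p 0.774). IQOS against CS gave -1.01 ± 0.11 (adjusted p 0.00364). Both calls held when any 1 of the 9 arrays was left out. With array row as a covariate, a term that only the air arrays determine, the changes were 0.91 (adjusted p 0.0501) and -0.76 (0.209).

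Tlr6, the partner of TLR2 for diacylated lipopeptides, had the widest standard error of the 9 tested genes. Its relative signal was 0.221, 0.226 and 0.274 in air, 0.421, 0.784 and 1.32 in CS, and 0.575, 0.215 and 0.683 in IQOS. All CS arrays lay above all air arrays, but CS 3 was far above CS 1, and IQOS 2 was below every air array. The change with CS was 1.66 ± 0.50 (3.17-fold) and did not pass (adjusted p 0.0732). It passed without CS 1, where the change was larger (2.09 ± 0.49, adjusted p 0.0485). It also passed without IQOS 2 (1.66 ± 0.38, adjusted p 0.0433). There the change was the same and the standard error smaller, since the fit pools the spread of all groups. IQOS against air gave 0.88 ± 0.50 (95% interval -0.29 to 2.04, adjusted p 0.351), and IQOS against CS gave -0.79 ± 0.50 (adjusted p 0.347).

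Tlr1, the other TLR2 partner, overlapped in all 3 groups. Its relative signal ran from 0.366 to 0.643 in air, 0.343 to 0.649 in CS and 0.228 to 0.578 in IQOS. CS against air gave -0.18 ± 0.40 (95% interval -1.10 to 0.73, adjusted p 0.80), an interval wide enough to hold a change of the size seen for Tlr2 in the lower direction but not in the higher one. A second Tlr1 probe gave -0.17 ± 0.36 (adjusted p 0.794). IQOS against air gave -0.31 ± 0.40 (adjusted p 0.691). Tlr1 and Tlr6 are related genes that lie next to each other on chromosome 5 in GRCm38.p6, with 0 protein-coding genes between them. Probe sequences were not used here, and whether a probe of either gene also binds RNA of the other was not tested.

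Of the lipopolysaccharide receptor genes, Cd14 rose with CS, while Tlr4 and Ly96 did not pass in any comparison. Cd14 had a relative signal of 7.01, 4.59 and 8.003 in air, 11.2, 11.97 and 13.6 in CS, and 5.79, 7.35 and 6.63 in IQOS. The CS arrays lay above all others, and air 2 was the lowest of the 9. Cd14 rose by 0.94 ± 0.20 with CS (1.92-fold, adjusted p 0.0281) and was lower by 0.90 ± 0.20 with IQOS than with CS (log2 -0.90, adjusted p 0.0319). IQOS against air gave 0.04 ± 0.20 (95% interval -0.42 to 0.50, adjusted p 0.922). A second Cd14 probe gave 0.99 ± 0.22 with CS (adjusted p 0.0312) and -0.93 ± 0.22 for IQOS against CS (adjusted p 0.0367). The call with CS ended without air 1 (adjusted p 0.0746), CS 2 (0.0796) or CS 3 (0.0756), although the change stayed between 0.87 and 1.01 there. The call between the aerosols ended without any array except air 2 and air 3 (adjusted p 0.0508 to 0.0941). With array row as a covariate the changes were 0.61 (adjusted p 0.276) and -0.40 (0.661).

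Tlr4, the signalling receptor for lipopolysaccharide, had a relative signal of 0.849 to 1.03 in air, 0.811 to 1.27 in CS and 0.881 to 1.11 in IQOS. The 3 groups overlapped. CS against air gave 0.13 ± 0.17 (95% interval -0.25 to 0.51, adjusted p 0.646) and IQOS against air gave 0.11 ± 0.17 (adjusted p 0.744). The second Tlr4 probe was dim, above background on 1 air, 2 CS and 1 IQOS arrays, and was not tested. Ly96, which encodes MD-2, was 19.0, 19.8 and 16.9 in air, 17.9, 17.2 and 15.7 in CS, and 18.7, 19.4 and 19.0 in IQOS. Its changes were -0.13 ± 0.08 for CS against air (95% interval -0.32 to 0.05, adjusted p 0.301) and 0.17 ± 0.08 for IQOS against CS (adjusted p 0.206), where the arrays did not overlap. A second, dimmer Ly96 probe, for another transcript, gave -0.12 ± 0.17 and -0.13 ± 0.17 in those comparisons, so the probes differed in sign between the aerosols. Within this receptor complex the intervals of Tlr4 and Ly96 with CS end below the change of Cd14. The 95% interval of Cd14 (0.48 to 1.40) overlaps that of Tlr4, and the difference between genes was not itself tested.

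Of the endosomal receptors, neither Tlr7 nor Tlr9 passed by its brightest probe in any comparison. Tlr7, a receptor for single-stranded RNA, had a relative signal of 0.542, 0.544 and 0.758 in air, 0.950, 0.899 and 0.782 in CS, and 0.845, 0.772 and 0.817 in IQOS. Both exposed groups lay above all air arrays, and air 3 came close to them. The changes were 0.53 ± 0.14 with CS (adjusted p 0.0507) and 0.42 ± 0.14 with IQOS (adjusted p 0.137). A dimmer Tlr7 probe, at 0.245 to 0.294 in air and 0.436 to 0.497 in CS, was called with CS (0.81 ± 0.14, adjusted p 0.0154) and not with IQOS (0.46 ± 0.14, adjusted p 0.11). Tlr7 with CS passed in 7 of 20 alternative settings, among them quantile normalization (0.0459), median centring (0.0407), the mean of its tested probes (0.0222) and the fit without air 3 (0.0191). With array row as a covariate it was 0.21 (adjusted p 0.439). The remaining probe, for another Tlr7 transcript, was not well above background on any array.

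Tlr9, the receptor for unmethylated DNA, stood out by its narrow spread. It was 1.58, 1.58 and 1.498 in air, 1.48, 1.59 and 1.52 in CS, and 1.78, 1.89 and 1.74 in IQOS. All IQOS arrays lay above all others, and air and CS overlapped. The changes were 0.23 ± 0.06 for IQOS against CS (1.17-fold, adjusted p 0.0501), 0.21 ± 0.06 for IQOS against air (1.16-fold, adjusted p 0.093) and -0.02 ± 0.06 for CS against air (95% interval -0.16 to 0.12, adjusted p 0.869). None of these passed, and the call between the aerosols was made in 4 alternative settings, with adjusted p from 0.0367 to 0.05. IQOS arrays filled their own slide, so the slide cannot be told apart from the exposure here. Tlr8, next to Tlr7 on the X chromosome with 0 protein-coding genes between them, was not well above background on any of the 9 arrays, at a relative signal of 0.00614 to 0.029, and was not tested.

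Myd88, the adaptor shared by these receptors, rose with CS. Its relative signal was 4.34, 4.60 and 4.30 in air, 5.45, 7.46 and 8.51 in CS, and 5.06, 5.20 and 5.41 in IQOS. The groups did not overlap, with air lowest, IQOS next and CS highest, and CS 1 lay just above the IQOS arrays. The change with CS was 0.67 ± 0.15 (1.59-fold, adjusted p 0.0303). IQOS against air gave 0.24 ± 0.15 (95% interval -0.09 to 0.58, adjusted p 0.369) and IQOS against CS gave -0.43 ± 0.15 (adjusted p 0.104). The call with CS ended without any 1 of the air arrays, without CS 2 or without CS 3 (adjusted p 0.0614 to 0.0998), and the change stayed between 0.53 and 0.70 there. It also ended once array row was a covariate (0.71, adjusted p 0.189), with no filter on dim probes (0.0649) and in a fit of air and CS alone (0.0662). Without CS 1 IQOS was lower than CS (-0.61, adjusted p 0.013).

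**Figure D2:**
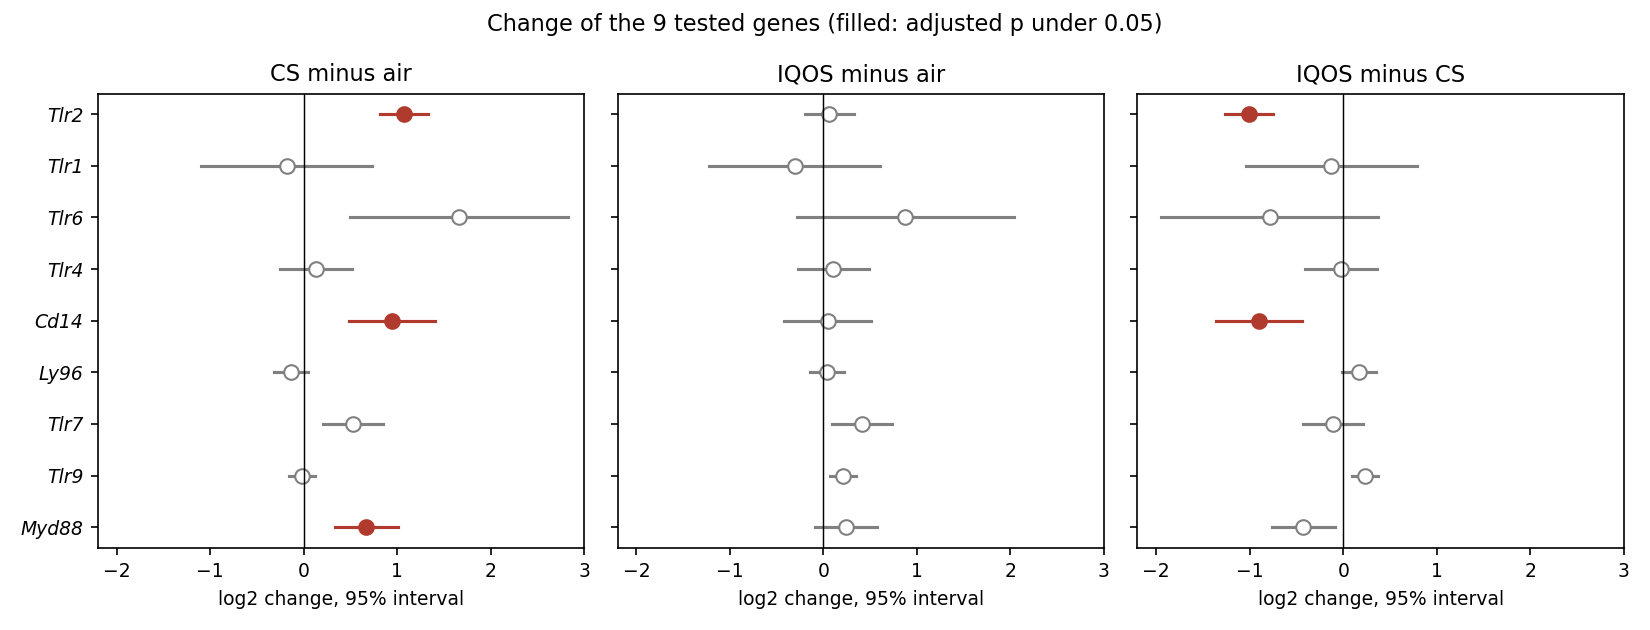
Log2 change (points, horizontal axis) and its 95% interval (lines) from limma for the 9 tested genes, with a panel each for CS minus air, IQOS minus air and, on the right, IQOS minus CS (3 arrays per group). Filled points passed an adjusted p under 0.05. Tlr2, Cd14 and Myd88 are filled in the first panel, no gene in the second, and Tlr2 and Cd14 in the third.

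The rest of the pathway was counted in lists chosen by role, and the comparisons of CS and of IQOS with air share the air arrays. Over all 16593 tested genes 5.6% were called higher and 6.12% lower with CS against air, and 1.99% and 0.886% with IQOS against air. For IQOS against CS the shares were 4.94% and 5.18%. Of the 5 other Toll-like receptor genes, Tlr13, a receptor for bacterial ribosomal RNA, rose with CS by 1.46 ± 0.34 (adjusted p 0.0367), and Tlr3, the double-stranded RNA receptor that signals without MyD88, fell by 0.56 (adjusted p 0.0471). Leaving out an air array, CS 2 or CS 3 took the Tlr13 call away (highest adjusted p 0.118), and leaving out any of the 9 did so for Tlr3 (highest 0.138). Neither Tlr13 (adjusted p 0.286) nor Tlr3 (0.276) passed with array row as a covariate. Against air, 0 of the 5 passed with IQOS in limma and 0 had an unadjusted p under 0.05, beside 3370 of all 16593 genes.

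Among 14 accessory and ligand-delivery genes 3 rose and 1 fell with CS, beside 5.6% and 6.12% of all genes. The median was 0.26, and 1 rose without air 1 and 5 without IQOS 2. The myeloid receptor gene Trem2 rose by 1.93 ± 0.17 (adjusted p 0.00278), Trem1, an amplifier of TLR signals in neutrophils and monocytes, by 0.66 ± 0.12 (adjusted p 0.0179), and the progranulin gene Grn by 0.34 ± 0.05. Tril, which encodes an accessory protein of TLR3 and TLR4, fell by 1.27 ± 0.14 (adjusted p 0.00488), from 0.196 to 0.267 in air to 0.0907 to 0.111 in CS. Trem2 and Tril kept their calls without each array in turn, Trem1 lost it without air 1 or CS 2 (highest adjusted p 0.0693) and Grn without air 1 (0.0525). With array row as a covariate Trem2 (adjusted p 0.0209) and Tril (0.0294) still passed, and Trem1 (0.161) and Grn (0.114) did not. With IQOS 0 rose and 1 fell against air, the nuclear protein gene Hmgb1 (-0.40, adjusted p 0.0464). Its call ended without any array except CS 1 and IQOS 1 (up to 0.142).

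Of 11 tested chaperone and trafficking genes, 2 rose and 1 fell with CS, beside 5.6% and 6.12% of all genes. The cathepsin genes Ctss (0.72 ± 0.11, adjusted p 0.0107) and Ctsb (0.28 ± 0.05) rose, and Cnpy3, a folding chaperone of Toll-like receptors, fell by 0.24. Ctss kept its call without each array in turn, Ctsb lost it without air 1, air 3, CS 2 or CS 3 (highest adjusted p 0.0913) and Cnpy3 without each of the 9 (up to 0.14). These calls all ended once array row was a covariate (Ctss then had an adjusted p of 0.0978). Of 21 tested adaptor, kinase and ubiquitin ligase genes, 2 rose and 0 fell with CS, beside 5.6% and 6.12% of all genes, and the median was 0.05. They were Tirap, which bridges TLR2 and TLR4 to MyD88 (0.55 ± 0.12, adjusted p 0.0298), and the kinase gene Map3k8 (0.50 ± 0.09, adjusted p 0.0165). Tirap no longer passed once an air array, CS 2 or CS 3 was dropped (highest adjusted p 0.103), nor Map3k8 once air 1 or CS 2 was (0.0697), and neither passed with array row as a covariate. Against air, IQOS gave 0 calls in limma in both of these lists. An unadjusted p under 0.05 was seen for 2 of 11 and 5 of 21 genes, beside 3370 of all 16593.

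Of 13 NF-kB and interferon regulatory factor genes, 1 rose with CS, Irf1 (0.53 ± 0.12, adjusted p 0.0313), beside 5.6% of all genes. The Irf1 call ended when any 1 air or CS array was dropped (highest adjusted p 0.0959), and with array row as a covariate (0.073). Between the aerosols 3 of these genes were lower with IQOS and 0 were higher, beside 5.18% and 4.94% of all genes. The 3 were Relb (-0.78 ± 0.12, adjusted p 0.0106), Nfkb2 (-0.50 ± 0.10) and Nfkb1 (-0.24 ± 0.06). Relb kept that call without each array in turn, Nfkb2 lost it without CS 2, CS 3, IQOS 1 or IQOS 2 (up to 0.0665) and Nfkb1 without each of the 9 (up to 0.115). Nfkb1 was also the gene that fell with IQOS against air (-0.29, adjusted p 0.0448), again lost without each of the 9 (up to 0.15). With array row as a covariate these calls between the aerosols ended too (adjusted p 0.354 for Relb).

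Of 19 genes listed as negative regulators 6 rose and 0 fell with CS, beside 5.6% and 6.12% of all genes. The median was 0.18, and 3 to 6 rose with 1 array left out, fewest without air 1 or air 3. The 6 were the IkB family gene Bcl3 (1.24 ± 0.09, adjusted p 0.00174), Socs3 (1.77 ± 0.16), the RNase gene Zc3h12a (1.03 ± 0.14) and Nfkbiz (0.84 ± 0.15), with Socs1 and Tnfaip3. The list name is a loose one for Bcl3 and Nfkbiz, and the direction in which the listed genes act was not tested. Bcl3, Socs3 and Zc3h12a kept their calls without each array in turn, and the others did not (adjusted p up to 0.0679 for Nfkbiz without air 1 or air 3, 0.08 for Socs1 when an air array, CS 2 or CS 3 was dropped, and 0.0961 for Tnfaip3 when an air or a CS array was dropped). Once array row was a covariate 2 of the 19 rose with CS, Bcl3 and Socs3, and Zc3h12a did not pass (adjusted p 0.0846). Zc3h12a was also higher with IQOS than in air (0.73 ± 0.14, adjusted p 0.0341, up to 0.129 without any air array, CS 2, IQOS 1 or IQOS 2), while the deubiquitinase gene Otud7b was lower (-0.30, adjusted p 0.046, up to 0.146, lost without each of the 9). Between the aerosols 4 of the 19 were lower with IQOS and 1 higher (Rnf216), beside 5.18% and 4.94% of all genes. Bcl3 and Socs3 were lower with IQOS than with CS by 1.06 ± 0.09 and 1.18 ± 0.16 (log2 -1.06 and -1.18, adjusted p 0.00159 and 0.00678). With array row as a covariate Bcl3 kept that call (adjusted p 0.039) and Socs3 did not (0.0974).

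Of 16 tested cytokine and chemokine targets 8 rose and 0 fell with CS, beside 5.6% and 6.12% of all genes, with a median of 1.06. The number that rose was 3 without air 1, CS 2 or CS 3, and 5 without air 2 or air 3. Cxcl2 (1.96 ± 0.25), Cxcl1 (2.41 ± 0.31) and Il6 (2.34 ± 0.36, adjusted p 0.012) had the smallest p, and Tnf changed by 0.38 ± 0.14 without passing (adjusted p 0.111). Cxcl1 and Cxcl2 kept their calls without each array in turn and Il6 lost it without air 1 (0.0518). Only 2 of the 16 rose once array row was a covariate, and Cxcl1 (adjusted p 0.0723) and Cxcl2 (0.0836) no longer passed. Against air, 0 of the 16 passed with IQOS in limma and 1 had an unadjusted p under 0.05, beside 3370 of all 16593 genes. Between the aerosols 5 were lower with IQOS and 0 higher, beside 5.18% and 4.94% of all genes.

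**Figure D3:**
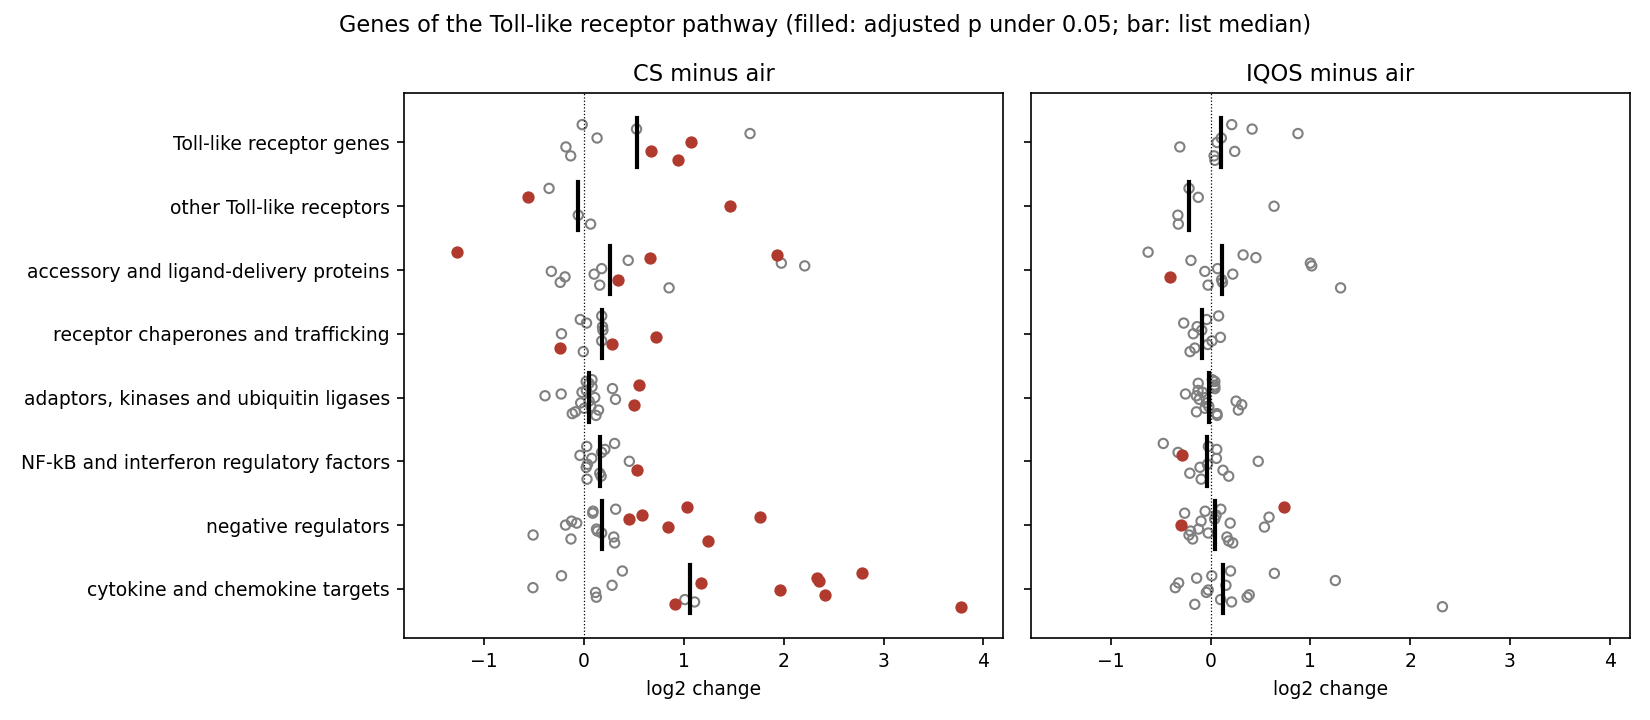
Log2 change of each tested gene (points) of 8 lists of the Toll-like receptor pathway, in CS minus air and IQOS minus air, with a black bar at the list's median. Filled points passed an adjusted p under 0.05 in limma with 3 arrays per group. In CS minus air the medians lie between -0.06 and 1.06, highest for the cytokine and chemokine targets, and in IQOS minus air between -0.22 and 0.13.

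Markers of the cell types that carry these receptors differed between the groups as well. Over all tested genes 5.6% were called higher and 6.12% lower with CS against air. The summed relative signal of 12 alveolar macrophage markers was 153 to 179 in air, 285 to 369 in CS and 173 to 199 in IQOS, and 5 of the 12 rose with CS, led by Itgax (1.07 ± 0.09, adjusted p 0.00223) and Chil3 (1.36 ± 0.14). The number that rose was 2 once array row was a covariate. With CS 7 of the 12 changes were positive and 5 negative (median 0.36), and none of the negative ones passed. The 12 markers included Siglecf (-0.09) and Car4 (-0.18), which did not pass. Bright probes weigh most in the sum. Tlr2 and Cd14 were highest on the 3 arrays where this sum was highest, but not in the same order among those arrays, since CS 1 had the largest sum and the lowest Tlr2 and Cd14 of the CS arrays. Among the monocyte and interstitial macrophage markers Fcgr4 rose with CS (1.49 ± 0.18), and the summed signal of the 12 markers was 148 to 165 in air, 172 to 212 in CS and 167 to 185 in IQOS. The part of these cells in the changes of Tlr2, Cd14 and Tlr7 was not tested.

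The summed signal of 12 neutrophil markers was 187, 198 and 235 in air, 346, 557 and 780 in CS, and 444, 179 and 440 in IQOS. Bright probes weigh most in this sum. S100a9 ran from 44.4 on IQOS 2 to 381 on CS 3, and S100a8 from 15.4 to 185 on the same arrays. Neither passed with CS in limma (adjusted p 0.0844 and 0.077), and both are also among the accessory genes. An unadjusted limma p under 0.05 against air was seen for 11 of the 12 markers with CS and 3 with IQOS. Over all 16593 genes these counts were 5184 and 3370. Of the 12 markers 4 rose with CS and 0 with IQOS against air in limma. The count with CS was 0 without air 1 or CS 2, 2 without air 3 or CS 3, 8 without CS 1 and 10 without IQOS 2, and 0 with array row as a covariate. Tlr6 followed the same order as this sum within the air arrays and within the CS arrays, and IQOS 2 was lowest for both. Tlr2, Cd14 and Myd88 followed it within the CS arrays, and none of these genes did within the air or the IQOS arrays. Among the defining markers, Cd177 was above background on 1 of the 3 air arrays and S100a8 on all, and Csf3r, at 99.3 to 114 on the 9 arrays, was nearly level (-0.03). The part of neutrophils in the levels of Tlr6, Tlr2, Cd14 and Myd88 was not tested.

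The 11 tested B cell markers went the other way, with a summed signal of 14.1 to 28.1 in air, 6.36 to 11.3 in CS and 10.9 to 22.4 in IQOS, and 4 of them fell with CS (0 without air 1, air 3 or CS 2, 1 without CS 3 or IQOS 3, 2 without air 2, and 0 with array row as a covariate). Tlr9, which B cells express, was at -0.02 for CS against air. Of 11 tested genes listed as dendritic cell markers 2 fell with CS, Cd209a (-0.60) and Ly6d (-0.99), which does not mark dendritic cells alone. Of the 11 changes 4 were positive and 7 negative. The sum was 262 to 268 in air, 237 to 264 in CS and 242 to 262 in IQOS. The Cd209a call ended without air 2, air 3, CS 2 or CS 3 (highest adjusted p 0.072), and that of Ly6d without any array except IQOS 2 (0.151). With array row as a covariate neither Cd209a (adjusted p 0.134) nor Ly6d (0.288) passed. Cd209a was also lower with IQOS than in air (-0.68, adjusted p 0.0295), a call that ended without any air or IQOS array (highest 0.0917). Of 12 epithelial and endothelial markers 0 passed in limma with CS. An unadjusted p under 0.05 was found for 1 of them, beside 5184 of all 16593 genes.

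**Figure D4:**
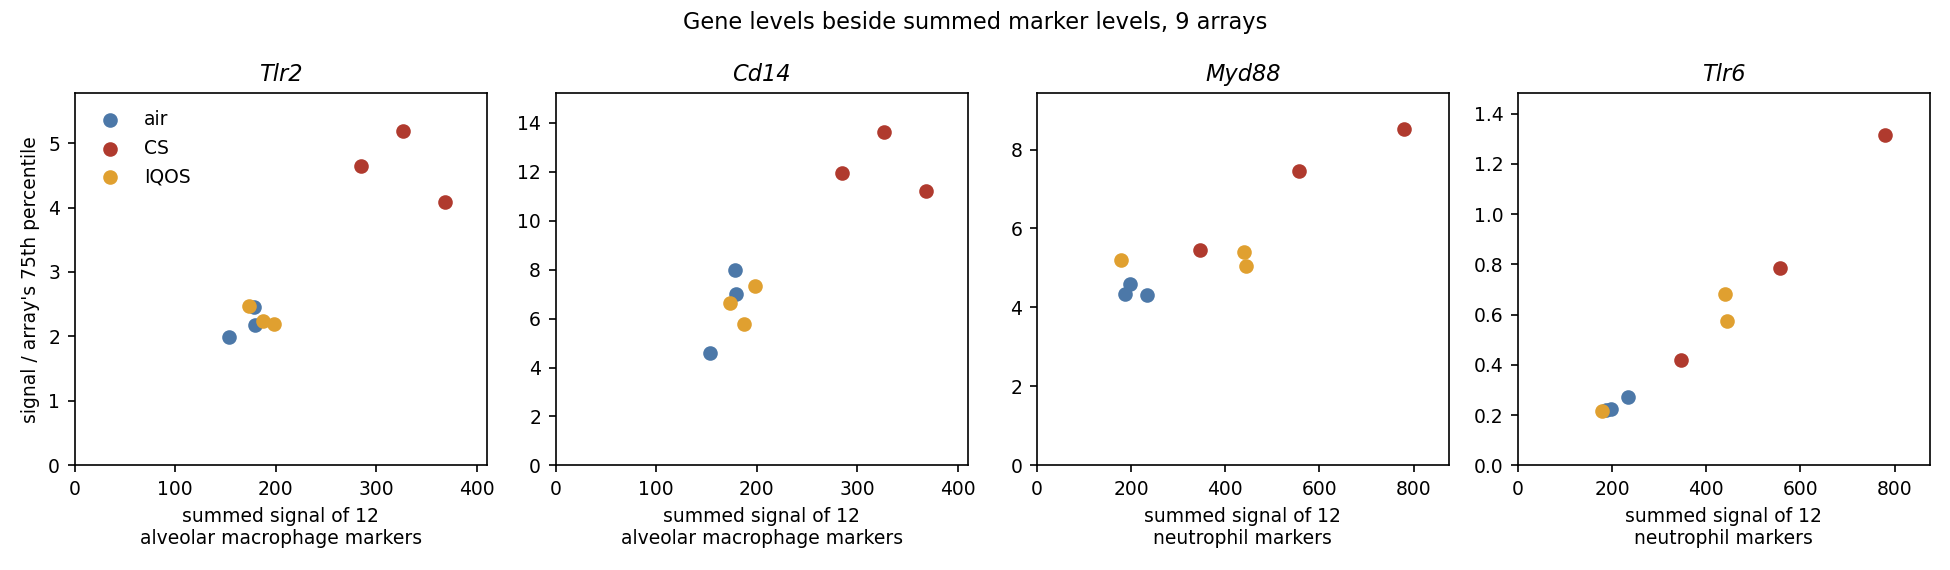
Relative signal of Tlr2, Cd14, Myd88 and Tlr6 (vertical axes) against the summed relative signal of 12 alveolar macrophage or 12 neutrophil markers (horizontal axes) on each of the 9 arrays, both linear from 0. The CS arrays stand apart in the first and second panels. In the fourth, Tlr6 is low where the neutrophil sum is low, at 0.215 on IQOS 2 with a sum of 179, and high where it is high, at 1.32 on CS 3 with a sum of 780.

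The genes whose profiles over the 9 arrays were nearest to each called gene were found by the root mean square of the log2 difference, after each gene was set against its own air mean. For Tlr2 they were F7, coagulation factor VII (0.12), the lysosomal protease gene Ctsd (0.13) and the lectin gene Clec4n (0.13). For Cd14 they were Selenbp2 (0.16), F7 (0.17) and the clock gene Per2 (0.18). For Myd88 they were Tmcc1 (0.08), Dmxl2 (0.11) and the tyrosine kinase gene Fes (0.12). These distances describe 9 arrays in 3 groups and were not tested.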

How the data were processed

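The deposited spot intensities are, per the file headers, Feature Extraction signals (Agilent Feature Extraction 10.7.1.1) after background subtraction and detrending, kept above 0 and not yet scaled from array to array. The deposited table of processed values gives a ratio of signal to the array's 75th percentile, which was worked out by setting it beside the scanner values (column medians 0.115 to 0.122). It is linear and not centred, and runs upward with signal. Software flags (0 or 1, no unit) were used as deposited.

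After control spots were removed, 59305 of the 62976 spots on an array remained, for 56605 probes. Outlier spots were left out, log2 signals of a probe were averaged, and the log2 of the array's 75th percentile (973.3 to 1098 units) was subtracted. Testing needed values on 2 or more arrays in every group, and a signal well above background throughout at least 1 group. This left 37258 probes. Accessions gave a symbol to 32994 probes (58.3%). All arrays entered the same limma model (version 3.58.1, lmFit and eBayes, in R 4.3.3), and the procedure was tested on simulated data. For CS against air 79.1% of 67 probes changed 2-fold were recovered, and 43.3% of 67 changed 1.5-fold. The 12 false calls there were among the unchanged ones of 37258 probes. At 2-fold 65.7% were recovered for IQOS against air and 73.1% for IQOS against CS. Files were read with data.table (version 1.17.8) and jsonlite (version 2.0.0).

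The genes and lists were chosen with earlier results of these data known. Named genes were the 10 receptor genes, up to 4 genes per list with the smallest p, and the 3 nearest profiles of each called gene. Genes that were named beyond this, such as other called genes of a list or cell type markers, were chosen after their values were seen. Of the lists' genes, Tasl, Ly6g and Ighm had no probe with that symbol, and Ticam2, Il10, Ifnb1 and Xcr1 were too dim to test. The replicate numbers were not used as pairs. Alternatives covered background correction, scaling, the filter, the variance model, array row, a replicate block, several probes per gene, the arrays fitted and each array left out. The result for 1 marker gene is not reported here.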

Additional observations from a re-analysis of the deposited data

How the results depend on the processing

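Of 9 tested receptor genes, 3 rose with CS; the count was 1 with no filter on dim probes or in a fit of air and CS alone, 0 with array row as a covariate, 5 at an adjusted p under 0.1, and 1 to 4 with 1 array left out. For IQOS against CS, 2 were lower, but 1 with no filter, 0 with array row, and 1 to 2 with 1 array left out. None was higher there, but 1 was (Tlr9) with quantile normalization, probes above background on all 9 arrays, a trended robust variance, the mean of all probes, or an adjusted p under 0.1. With normexp background 1 gene, Tlr7, was higher with IQOS than in air (adjusted p 0.0338), where 0 had been. At an adjusted p under 0.1 the 1 gene was Tlr9 instead (0.093). The array row term rests on the air arrays, since each exposed group lay in 1 row.

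Replicate numbers did not pair the samples (correlations of same-numbered deviations -0.08 to 0.20). With the replicate number as a block, 1 gene was lower with IQOS than with CS, as Cd14 reached an adjusted p of 0.0505, and no other call of these genes ended. A slide block was not run, as IQOS had a slide alone.

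Reversals concerned uncalled changes, and the cause was not tested. With array row, Ly96 was -0.027 for IQOS against CS and -0.030 against air, Tlr1 0.013 and Tlr7 0.37 for IQOS against CS, and Tlr9 0.032 for CS against air. With normexp, Ly96 was -0.078 for IQOS against air and Tlr4 0.11 for IQOS against CS, and with the mean of all probes that Ly96 value was -0.11. With 1 array left out, CS against air ran from -0.46 to 0.0020 for Tlr1, -0.034 to 0.29 for Tlr4 and -0.046 to 0.0037 for Tlr9. IQOS against air ran from -0.56 to 0.11 for Tlr1, -0.0075 to 0.15 for Tlr2, -0.030 to 0.083 for Ly96 and -0.19 to 0.21 for Cd14. IQOS against CS ran from -0.38 to 0.29 for Tlr1 and -0.18 to 0.14 for Tlr4.

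Over all probes, 1725 were higher and 2115 lower with CS than in air, against 130 and 181 with array row, 361 and 364 without air 1, and 778 and 763 with no filter. No setting moved the median of all probes by over 0.1.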
